A study of Arabidopsis thaliana with 4 samples.

Results

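The genes described here encode the enzymes of the general phenylpropanoid pathway: the phenylalanine ammonia lyases PAL1 (AT2G37040), PAL2 (AT3G53260) and PAL4 (AT3G10340), cinnamate 4-hydroxylase C4H (AT2G30490), and the 4-coumarate:CoA ligases 4CL1 (AT1G51680), 4CL2 (AT3G21240) and 4CL3 (AT1G65060). They were chosen by gene identifier, for the enzyme each encodes, with earlier results of these data known. PAL3 and 4CL5, a lyase and a ligase gene of the same steps, are not among them. All 7 were found among the 33602 gene entries of the deposited expression table. Levels are in RPKM, reads scaled to gene length and library size. Total RPKM follow from the deposited reads and gene lengths, but polysomal RPKM do not for every gene. All 7 had values in the 4 libraries and passed the filter on low values, a mean over these of 1 RPKM or more, as did 17684 genes in all. The pathway turns phenylalanine into activated 4-coumarate. PAL removes the amino group to give cinnamate, C4H, a cytochrome P450 of the endoplasmic reticulum, adds a hydroxyl group, and 4CL joins the product to coenzyme A. From there carbon goes to lignin, to sinapate esters or to flavonoids, and in seedlings that leave darkness the flavonoids and sinapate esters serve as sunscreens.

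Wild-type Arabidopsis thaliana of the accession Col-0 was grown for 4 days in the dark at 22 °C. The seedlings then received 4 h of white light or stayed dark, and mRNA was sequenced from polysomal RNA, which is bound by several ribosomes, and from total RNA. The 4 groups, polysomal light, polysomal dark, total light and total dark, hold 1 library each, so no difference given here has a replicate check. Polysomal RNA was extracted with phenol and chloroform and total RNA by the Pine Tree method, so fraction and extraction method cannot be told apart. The deposited reads were partly not whole numbers in the polysomal libraries and all whole in the total ones. The way of counting reads thus appears to differ between the fractions, and cannot be told apart from them either. Whole seedlings were used, and in such bulk samples fewer cells of a type and less RNA per cell cannot be told apart.

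The reads listed over all genes numbered 61006149 in polysomal light, 77849944 in polysomal dark, 91087442 in total light and 64950412 in total dark. The enzymes took 0.0707% and 0.0487% of them in polysomal light and dark, and 0.124% and 0.0630% in total light and dark. The light labels were checked against markers: 3 of 3 genes of light-treated seedlings (LHCB1.1, ELIP1, CHS) were at least 2-fold higher in light, and 3 of 3 genes of etiolated seedlings (PORA, PHYA, ATHB2) at least 2-fold lower, in both fractions. Of 5 root markers, the root hair genes COBL9 and EXPA7 were not among the genes with values in the 4 libraries. The endodermis gene CASP1 had 295 RPKM in polysomal light, 482 in polysomal dark, 63.3 in total light and 85.6 in total dark, and SCR and SHR had 9.85 to 23.5 RPKM. The 7 markers of xylem and lignifying cells summed to 202 RPKM in polysomal light and 248 in polysomal dark, and to 87.6 RPKM in total light and 76.9 in total dark, none of them at 0.

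C4H was the most abundant of the 7 mRNAs in every library, and 4CL3 the one that differed most between light and dark. C4H stood at 126 RPKM in polysomal light, 64.5 in polysomal dark, 287 in total light and 108 in total dark. PAL1, which acts redundantly with PAL2, had 69.8, 44.7, 95.7 and 49.0 RPKM in the same order of libraries. PAL2 had 30.7, 18.8, 68.5 and 35.1 RPKM. In these 3 genes light lay above dark in both fractions.

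PAL4 and 4CL1 were nearly flat. PAL4 had 30.3 RPKM in polysomal light, 33.5 in polysomal dark, 29.8 in total light and 26.6 in total dark. 4CL1 had 44.0, 44.8, 49.7 and 39.4 RPKM in that order. In both genes light was above dark in total mRNA and below it in polysomal mRNA, where the direction turned when ratios were centred. 4CL2 was low throughout, at 10.2 RPKM in polysomal light, 8.18 in polysomal dark, 13.6 in total light and 11.9 in total dark. 4CL3, the 4CL of the flavonoid branch, had 10.6 RPKM in polysomal light against 0.556 in polysomal dark, and 5.71 RPKM in total light against 0.340 in total dark. These 4CL3 values rest on 1355, 91, 1122 and 48 reads.

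In total light the order of levels ran C4H, PAL1, PAL2, 4CL1, PAL4, 4CL2, 4CL3, and in total dark PAL2 and 4CL1 changed places. Exact 95% intervals, which cover counting error only, separated all neighbours in both total libraries. In polysomal light PAL2 and PAL4 were not separated, nor were 4CL3 and 4CL2. In polysomal dark 4CL1 and PAL1 were not separated, at 44.8 and 44.7 RPKM.

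**Figure D1:**
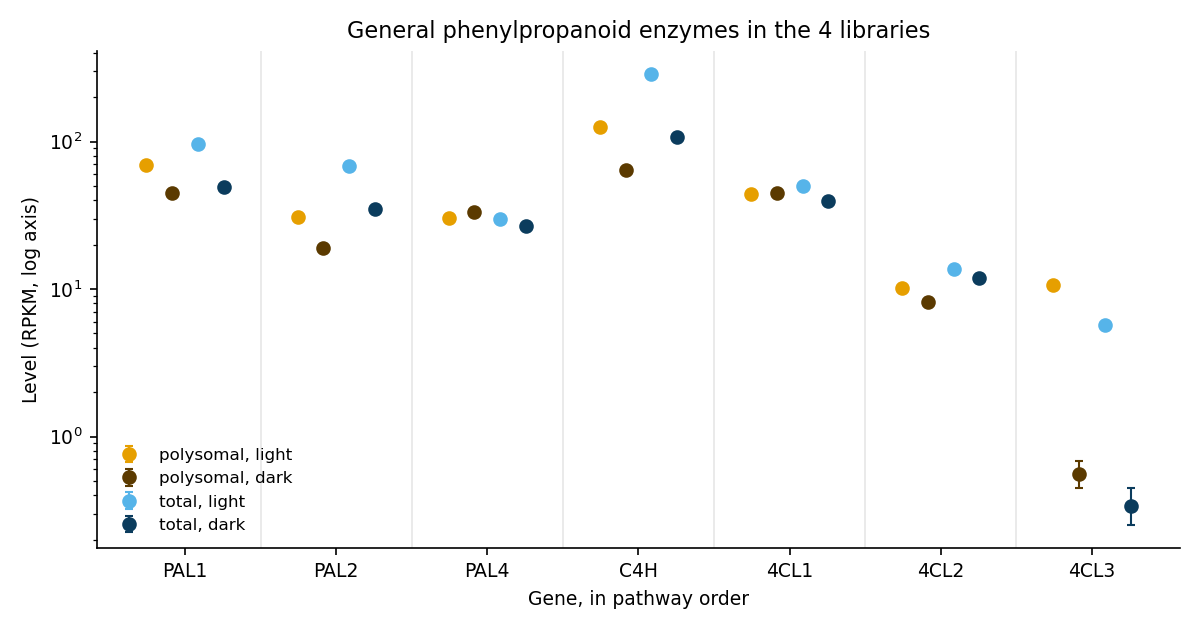
RPKM of each enzyme gene in the 4 libraries on a log axis, with exact 95% intervals for counting error, mostly smaller than the points. 4CL3 is near 10.6 RPKM in polysomal light and under 1 RPKM in both dark libraries, whereas PAL4 and 4CL1 are nearly level.

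The first comparison asked how the mRNA of each enzyme differed after 4 h of light. Differences are log2 ratios of (RPKM + 1), called when they reach 2-fold, and the added 1 understates the change of low genes. Fold values are ratios of RPKM with exact 95% intervals for counting error. In total mRNA, 2 of 7 enzymes were called higher in light, C4H and 4CL3, and 0 lower. Of all tested genes 10.7% were called higher and 5.73% lower. The median log2 ratio of the enzymes was 0.95, against -0.02 over all genes, and 7 of 7 lay above that median. PAL3 and 4CL5, outside the 7, were at 0.74 and -0.26, so 4CL5 lay below it.

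At the entry step, PAL1 was 1.95-fold (1.90 to 2.00) and PAL2 1.95-fold (1.90 to 2.01) higher in light in total mRNA, both at a log2 ratio of 0.95, just short of the line. PAL4 was 1.12-fold (1.08 to 1.16) higher. C4H, the single enzyme of the next step, was 2.66-fold (2.61 to 2.71) higher. Among the ligases, 4CL1 was 1.26-fold (1.22 to 1.30) and 4CL2 1.15-fold (1.08 to 1.22) higher in light, while 4CL3 was 16.8-fold (12.6 to 22.9) higher. The ligase genes thus covered a wider range in total mRNA than the lyase genes did.

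In polysomal mRNA, 1 of 7 enzymes was called higher in light, 4CL3, and 0 lower, against 9.35% and 10.3% of all genes. The median log2 ratio was 0.63, against -0.17 over all genes, and 7 of 7 again lay above that median. PAL3 and 4CL5 were at 0.71 and 0.03. 4CL3 was 19.0-fold (15.4 to 23.8) higher in light. C4H reached 1.96-fold (1.90 to 2.01), a log2 ratio of 0.96, and was called as well, at 1.17, when ratios were centred, that is, shifted by the median ratio of the genes of 5 RPKM or more. PAL1 was 1.56-fold and PAL2 1.63-fold higher, and 4CL2 1.24-fold (1.15 to 1.35) higher.

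PAL4 was 0.904-fold (0.871 to 0.938) and 4CL1 0.980-fold (0.948 to 1.01) in polysomal light relative to polysomal dark. Their log2 ratios of -0.14 and -0.03 became 0.08 and 0.19 with the centring, so their direction depends on the scaling. Of all genes 9.35% were called higher and 10.3% lower in light in polysomal mRNA, and 10.7% and 5.73% in total mRNA. The 7 xylem markers had 0 genes called in either fraction, with medians of -0.27 in polysomal and 0.14 in total mRNA. The 3 seed markers were lower in light, with medians of -1.44 in polysomal mRNA, where 2 of 3 were called lower, and -0.96 in total mRNA. Their sums were 78.3 RPKM in polysomal light, 244 in polysomal dark, 23.6 in total light and 47.9 in total dark. The part of other cell types in these results was not tested.

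The gene composition of the PAL and 4CL steps differed between light and dark. PAL4 made up 22.6% of the summed PAL RPKM in polysomal light against 34.1% in polysomal dark, and 15.1% in total light against 23.7% in total dark. PAL1 took the largest share everywhere, at 52.3% and 45.4% in polysomal light and dark and 48.4% and 43.6% in total light and dark. PAL2 held 23.0% and 19.2% in polysomal light and dark but 34.7% and 31.2% in total light and dark, so its share was lower in polysomal than in total mRNA. PAL3, the remaining lyase gene, stayed between 1.34% and 2.09%. The PAL sum itself was 134 RPKM in polysomal light against 98.3 in polysomal dark, a fold of 1.36, and 198 RPKM in total light against 112 in total dark, a fold of 1.76.

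4CL3 made up 15.8% of the 4CL sum in polysomal light against 0.995% in polysomal dark, and 7.97% in total light against 0.620% in total dark. 4CL1 held most of the rest, with 65.5% and 80.2% in polysomal light and dark and 69.4% and 71.7% in total light and dark. 4CL2 ranged from 14.6% to 21.6% and 4CL5 (AT3G21230) from 3.54% to 5.99%. The whole 4CL sum differed little, at 67.1 RPKM in polysomal light against 55.9 in polysomal dark, a fold of 1.20, and 71.6 in total light against 54.9 in total dark, a fold of 1.31. Both folds are small beside that of the 4CL3 share.

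**Figure D2:**
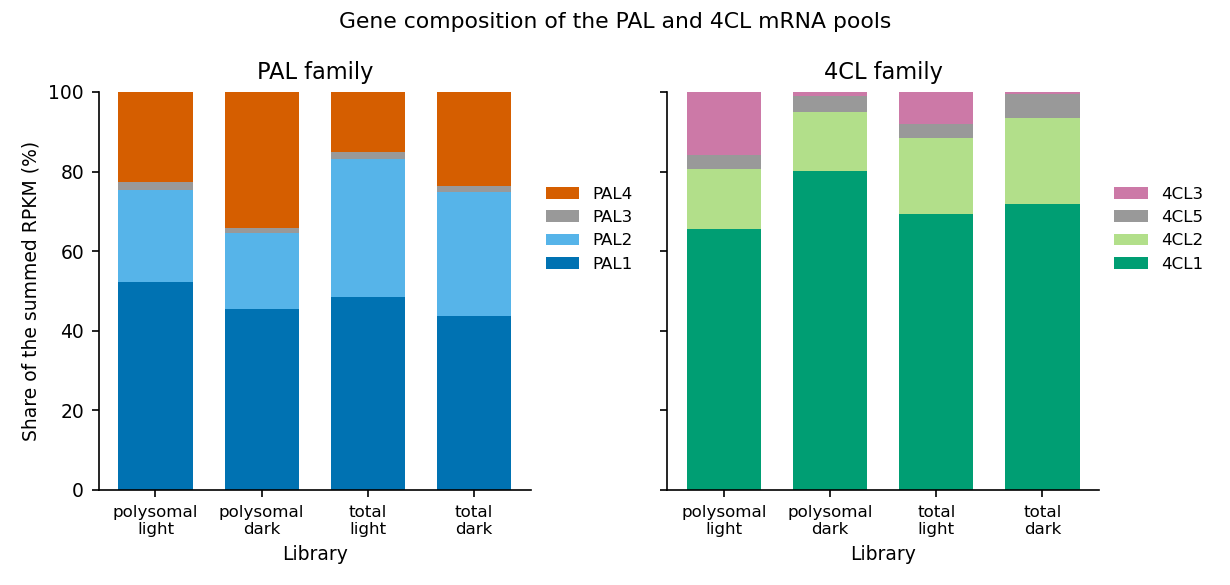
Share of each gene in the summed RPKM of its family, in percent, for the 4 libraries. In the 4CL panel the 4CL3 segment is 15.8% in polysomal light and 0.995% in polysomal dark, and in the PAL panel the PAL4 segment is smaller in light in both fractions.

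Close copies bear on these shares. PAL1 and PAL2 are identical at 84.0% of aligned coding bases, with a longest identical run of 80 bases, and 4CL1 and 4CL2 at 81.6%, with a run of 35 bases. 4CL3 is more distant, at 68.5% to 4CL1 and 67.3% to 4CL2, and PAL4 matches PAL1 at 72.9% and PAL2 at 73.5%. How reads that fit more than 1 gene were counted is not given in the sources used here, so the split between PAL1 and PAL2 is uncertain. The deposited reads of the enzymes were whole numbers in the 4 libraries, whereas 20.4% and 19.8% of all polysomal light and dark values were not. In total light and total dark 0% were not whole. On the TAIR10.1 annotation 6 of the 7 loci overlap no other gene. 4CL1 overlaps AT1G51670 on the other strand, and whether strand was used in counting is not given.

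The promoters of the ligases differ in short motifs. AC elements are cytosine-rich sites known to bind MYB factors in phenylpropanoid promoters. The 250 bases before the annotated start of each gene were searched on both strands for the AC element ACCTACC, for its variants, spelled ACCAACC in one and ACCTAAC in the other, for the G-box, CACGTG, and for the G-box core, ACGT, which lies inside it. The sequences are from RefSeq, build TAIR10.1, written on the gene's strand. Those that hold an AC element or a G-box are shown, with these in capitals.
4CL3, chr1:24171636-24171885, minus strand: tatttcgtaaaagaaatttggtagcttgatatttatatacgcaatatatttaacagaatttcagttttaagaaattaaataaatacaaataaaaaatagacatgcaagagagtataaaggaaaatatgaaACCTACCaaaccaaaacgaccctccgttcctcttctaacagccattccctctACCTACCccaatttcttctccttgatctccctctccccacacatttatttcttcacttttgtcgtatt
4CL2, chr3:7457405-7457654, minus strand: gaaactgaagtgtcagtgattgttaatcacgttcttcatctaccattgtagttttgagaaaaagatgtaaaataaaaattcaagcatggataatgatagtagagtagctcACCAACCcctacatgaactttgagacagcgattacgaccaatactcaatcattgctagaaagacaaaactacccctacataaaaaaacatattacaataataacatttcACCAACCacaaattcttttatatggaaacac
PAL4, chr3:3203738-3203987, plus strand: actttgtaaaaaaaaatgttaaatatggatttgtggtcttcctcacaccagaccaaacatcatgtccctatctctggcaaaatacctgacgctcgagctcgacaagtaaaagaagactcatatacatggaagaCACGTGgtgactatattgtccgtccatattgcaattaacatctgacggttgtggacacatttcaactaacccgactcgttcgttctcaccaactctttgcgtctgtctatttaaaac

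The sequence before 4CL3, the ligase that differed most with light, holds ACCTACC at 2 places, starting 120 and 68 bases before the gene. The sequence before 4CL2, whose level hardly moved, holds ACCAACC at 140 and 31 bases. The G-box of PAL4 starts 117 bases before the gene. Of 27443 promoters of protein-coding genes, 1.16% hold ACCTACC, 2.69% ACCAACC, 2.46% ACCTAAC and 6.49% CACGTG, and 6.12% hold any of the 3 AC elements, as do 2 of the 7 enzymes. ACGT occurs before 5 of the 7 enzymes and in 44.1% of all promoters. PAL1, PAL2, C4H and 4CL1 hold none of the AC elements or the G-box in these windows. A match is a match of letters only.

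The second comparison asked how the level of each mRNA in polysomal RNA compared with its level in total RNA. Each library is scaled to its own size. These ratios are thus relative to other mRNAs and do not give the share of an mRNA in polysomes. They also carry any difference in the gene length or the counting of reads used for the 2 fractions. The gene lengths behind the polysomal RPKM are not given. In the dark, 0 of 7 enzymes were called higher or lower in polysomal than in total mRNA, whereas 16.5% of all genes were called higher and 16.2% lower. PAL2 had the lowest log2 ratio, -0.86, followed by C4H at -0.73 and 4CL2 at -0.49. PAL1 was at -0.13, and 4CL1, 4CL3 and PAL4 lay above 0 at 0.18, 0.22 and 0.32. The 4CL3 fold of RPKM in the dark, 1.64, had an interval of 1.14 to 2.37.

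In light, 0 enzymes were called higher and 2 lower in polysomal mRNA, PAL2 and C4H, against 12.8% and 21.4% of all genes. PAL2 was at 30.7 RPKM in polysomal light and 68.5 in total light, 2.23-fold (2.16 to 2.30) lower. C4H was at 126 RPKM in polysomal light and 287 in total light, 2.28-fold (2.24 to 2.32) lower. PAL1 had a log2 ratio of -0.45, 4CL2 of -0.39, 4CL1 of -0.17 and PAL4 of 0.02. 4CL3 was the enzyme furthest towards polysomes, 1.85-fold (1.71 to 2.01) higher in polysomal light, a log2 ratio of 0.79. The enzyme median was -0.39 in light and -0.13 in the dark, against -0.31 and -0.14 over all genes.

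The deposited gene length, which does not account for the polysomal RPKM of every gene, moved with these ratios. The enzyme genes measure 1.91 to 2.82 kb, and the 4366 tested genes in that range had a median log2 ratio of -0.75 in light and -0.56 in the dark, with 32.5% and 23.2% called lower in polysomal mRNA. With the trend on log gene length removed, neither PAL2 (-0.20) nor C4H (-0.65) was called lower in light, and the same calls were lost with centred ratios. After the length step PAL4 (1.01) and 4CL3 (1.47) were called higher in light, and PAL4 also in the dark, where 4CL3 was at 0.71. The same step left 7.67% of all genes called higher and 6.97% called lower in light, and 9.95% and 8.73% in the dark. PAL1 and 4CL1 were then at 0.47 and 0.64 in light. Among the 3 lyases the order stayed PAL4, PAL1, PAL2 from most to least polysomal, with and without the length step and in both conditions. Xylem markers also lay on the polysomal side, with 2 of 7 called higher in light and 5 of 7 in the dark and medians of 0.78 and 1.21, against 12.8% and 16.5% of all genes called higher. With centred ratios 4 of 7 were called higher in light, VND7 and LAC4 being new, against 17.7% of all genes. Of the seed markers 2 of 3 were called higher in both, with medians of 1.68 in light and 2.16 in the dark. The root markers went both ways, with CASP1 at 2.20 and 2.48, SCR at -0.64 and -0.24, and SHR at -0.33 and -0.14. These marker ratios were not corrected for gene length. The part of these cell types in the ratios was not tested.

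**Figure D3:**
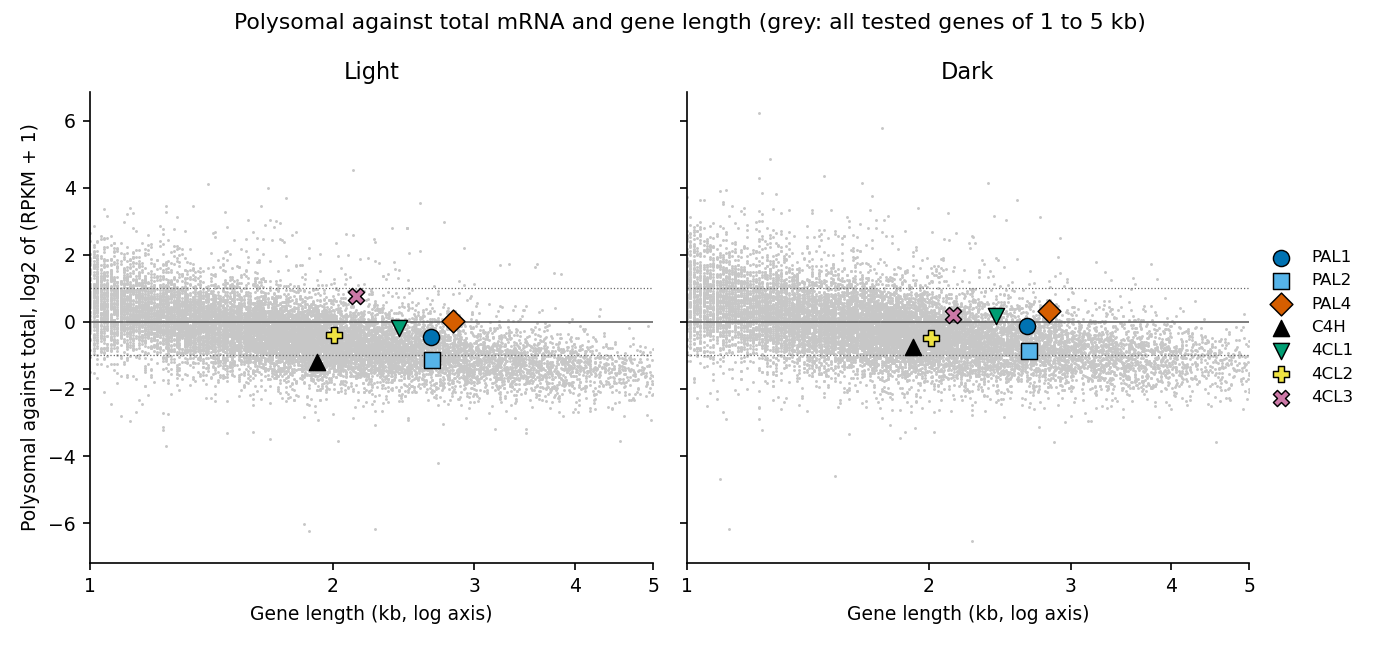
Log2 ratio of polysomal against total mRNA, from (RPKM + 1), by gene length on a log axis, for the 7 enzymes (coloured symbols) and all tested genes of 1 to 5 kb (grey), in light and dark. Dotted lines mark 2-fold; PAL4 and 4CL3 lie above most genes of their length, and C4H and PAL2 close to -1 in light.

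Whether the polysomal-to-total ratio differed between light and dark was read from the difference of the 2 ratios. A change common to all mRNAs would not show in it. No enzyme reached 2-fold, with 0 higher and 0 lower against 0.741% and 3.27% of all genes. C4H had the most negative difference, -0.45, a fold of 0.735 (0.711 to 0.759), followed by 4CL1 at -0.36, PAL1 at -0.32, PAL4 at -0.30 and PAL2 at -0.27. The median over all genes was -0.18, so these 5 lay below it. 4CL2 was at 0.10, and its fold of 1.08 had an interval of 0.981 to 1.20. 4CL3 was at 0.57 on the log2 scale, but without the added 1 its ratio of RPKM folds was 1.13 (0.792 to 1.62), an interval that includes 1.

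The steps before the enzymes were described from a list of 20 genes that supply phenylalanine. In total mRNA 6 of 20 were called higher in light and 0 lower, with a median log2 ratio of 0.62, and in polysomal mRNA 5 and 0, with 0.57. Of all tested genes 10.7% were called higher and 5.73% lower in total mRNA, and 9.35% and 10.3% in polysomal mRNA. ADT1 (AT1G11790), an arogenate dehydratase of the last step, had 11.4 RPKM in polysomal light against 2.51 in polysomal dark, and 15.0 in total light against 3.01 in total dark. ADT4 (AT3G44720) had 14.2 against 3.49 RPKM in polysomal light and dark, and 12.9 against 3.21 in total light and dark. CM1 (AT3G29200), the chorismate mutase at the branch to phenylalanine and tyrosine, had log2 ratios of 1.34 in polysomal and 1.71 in total mRNA. DHS1, a first enzyme of the shikimate pathway, had 1.04 and 1.17, and PPA-AT, the prephenate aminotransferase, 1.13 and 0.90. CS, chorismate synthase, was nearest to the list median with 0.63 and 0.68. Like PAL and 4CL, the ADT family held both high and flat genes: ADT2 was at 0.02 in polysomal and -0.08 in total mRNA. None of the 20 was called in polysomal against total mRNA, in light or dark. Over all genes 12.8% were called higher and 21.4% lower there in light, and 16.5% and 16.2% in the dark.

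Another 4 genes belong to the same steps or serve C4H, and 0 of 4 were called in light against dark in either fraction. Over all genes 10.7% were called higher and 5.73% lower in total mRNA, and 9.35% and 10.3% in polysomal mRNA. PAL3 (AT5G04230) was low, at 2.79 RPKM in polysomal light, 1.31 in polysomal dark, 3.59 in total light and 1.74 in total dark. 4CL5 was at 2.38, 2.31, 2.58 and 3.29 RPKM in the same order. The cytochrome P450 reductases ATR1 (AT4G24520) and ATR2 (AT4G30210), which pass electrons to C4H and other P450 enzymes, were lower in polysomal than in total mRNA. ATR1 had 20.9 RPKM in polysomal light against 85.3 in total light, and 38.0 in polysomal dark against 156 in total dark. ATR2 had 18.7 against 85.0 RPKM in polysomal and total light, and 18.7 against 113 in polysomal and total dark. Their log2 ratios, -1.98 and -2.13 in light and -2.01 and -2.53 in the dark, were lower than that of C4H in both conditions. These ratios were not corrected for gene length, and ATR1 and ATR2 measure 2.74 and 2.66 kb against 1.91 kb for C4H. In total mRNA ATR1 was at 0.547-fold in light relative to dark, where C4H was at 2.66-fold.

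Downstream, the monolignol branch, which makes the building blocks of lignin, had 5 of 10 genes called higher in light in total mRNA and 3 of 10 in polysomal mRNA, and 0 lower in either. The shares over all genes were 10.7% and 9.35% higher, and 5.73% and 10.3% lower. FAH1 (AT4G36220), the ferulate 5-hydroxylase that sinapate synthesis also needs, stood apart from the rest of the list. It had 33.2 RPKM in polysomal light against 1.54 in polysomal dark, and 35.6 RPKM in total light against 1.44 in total dark. CAD4 had log2 ratios of 2.13 in polysomal and 2.18 in total mRNA, and CCR1 0.86 and 1.19. COMT1 was called higher in both fractions, with 1.43 in polysomal mRNA. HCT, the enzyme that opens the branch, was at -0.03 in polysomal and 0.29 in total mRNA, close to 4CL1. CCoAOMT1 was called higher in polysomal than in total mRNA, at 1.28 in light and 1.81 in the dark, and CCR1 in the dark at 1.22.

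Of 4 sinapate ester genes, SNG2 had no value in the 4 libraries. UGT84A2 (AT3G21560), a sinapate glucosyltransferase, was called higher in light, with 56.3 RPKM in polysomal light against 13.6 in polysomal dark and 66.6 in total light against 7.18 in total dark. Its polysomal-to-total ratio differed by -1.08 between light and dark. SNG1, which makes sinapoylmalate, was at 0.36 in polysomal and 0.60 in total mRNA, and was called lower in polysomal than in total mRNA in light, at -1.07. REF1, an aldehyde dehydrogenase that forms ferulate and sinapate, was at -0.80 in polysomal and -0.48 in total mRNA.

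In the flavonoid branch 10 of 11 genes were called higher in light in polysomal mRNA and 8 of 11 in total mRNA, with median log2 ratios of 2.92 and 2.42. The shares of all genes called higher were 9.35% and 10.7%. F3H, the flavanone 3-hydroxylase, CHIL, a chalcone isomerase-like protein, and CHS (AT5G13930), chalcone synthase, were at 4.56, 4.13 and 4.00 in polysomal mRNA. CHS, CHIL and the glucosyltransferase UGT78D2 were at 4.80, 4.15 and 3.82 in total mRNA. On the scale with the added 1, the 4CL3 values, 2.90 and 2.32, lay close to the list medians and above the values of the other 6 enzymes. In total mRNA this closeness depends on the added 1. In total dark 4CL3 had 0.34 RPKM, and CHIL, FLS1 and F3H had 0.61, 0.42 and 0.16. In light 6 of 11 were called higher in polysomal than in total mRNA, against 12.8% of all genes, among them CHIL at 1.68 and F3H at 1.63. Without the added 1, CHIL was 3.28-fold (3.13 to 3.43), F3H 3.27-fold (3.09 to 3.46) and DFR 5.72-fold (4.56 to 7.24) higher. The polysomal-to-total ratio passed 2-fold in light against dark for DFR, LDOX and F3H, but only on the scale with the added 1. Without it F3H was at 0.678-fold (0.397 to 1.16), and DFR and LDOX, with 1 and 2 reads in total dark, are given no fold. F3'H, the flavonoid 3'-hydroxylase, was flat at 0.00 in polysomal and -0.14 in total mRNA.

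**Figure D4:**
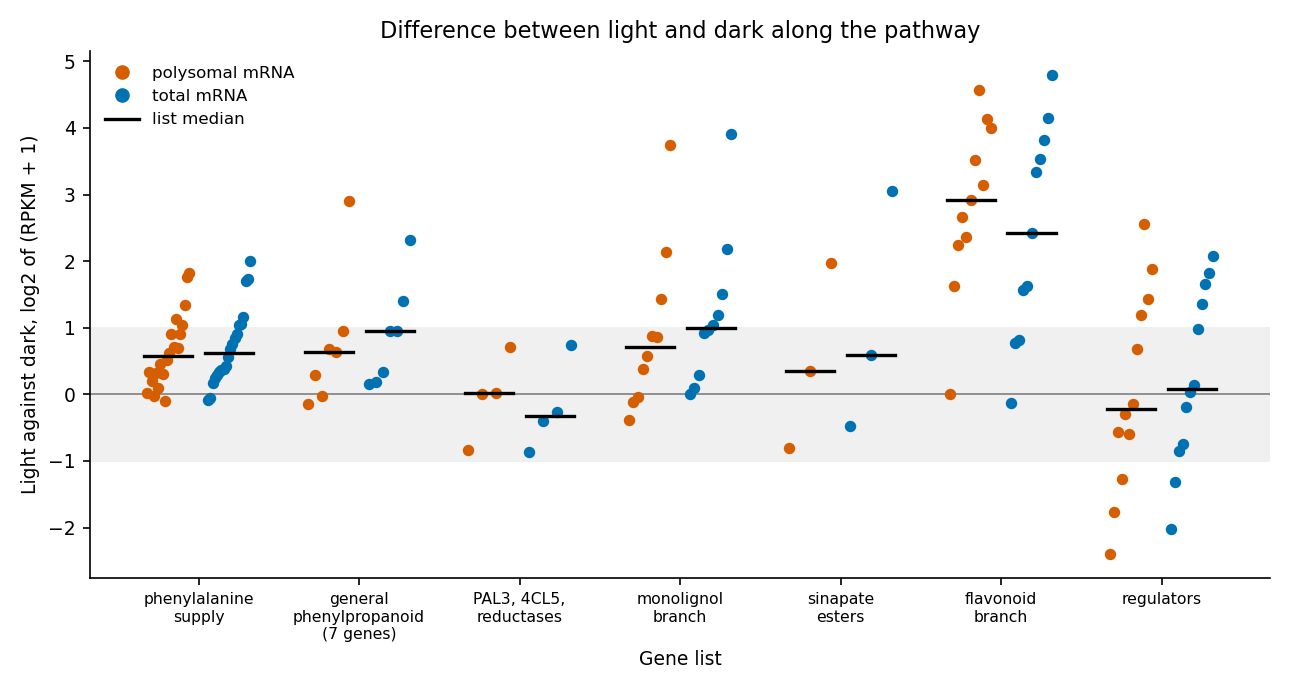
Log2 ratio of light against dark, from (RPKM + 1), for every tested gene of 7 lists in pathway order, polysomal mRNA left of total mRNA, with list medians as bars and the range under 2-fold in grey. The 7 enzymes have medians of 0.63 and 0.95, and the flavonoid branch 2.92 and 2.42.

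Of 14 regulators, MYB11 and KFB39 had no value in the 4 libraries. In polysomal mRNA 4 of 12 were called higher in light and 3 lower, and in total mRNA 4 and 2. Over all genes 9.35% were called higher and 10.3% lower in polysomal mRNA, and 10.7% and 5.73% in total mRNA. HY5 (AT5G11260), a bZIP factor of light responses, had 165 RPKM in polysomal light against 44.1 in polysomal dark, and 39.5 in total light against 8.63 in total dark. Its 9159 polysomal and 6987 total reads in light do not lead to these RPKM by a shared gene length. Its levels are therefore not compared between fractions. MYB75, a factor of anthocyanin genes, was at 2.56 in polysomal and 1.66 in total mRNA, and MYB12, a factor of flavonol genes, at 1.44 and 1.83. MYB4, known as a repressor of C4H, was called higher as well, at 1.19 and 1.35.

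The KFB genes encode F-box proteins known to bind PAL enzymes and lead to their breakdown, and the 3 measured had lower mRNA values in light. KFB01 (AT1G15670) had 7.32 RPKM in polysomal light against 42.6 in polysomal dark, and 15.4 in total light against 65.9 in total dark. KFB20 (AT1G80440) had 75.2 against 259 RPKM in polysomal light and dark, and 145 against 363 in total light and dark. KFB50 (AT3G59940) was called lower in polysomal mRNA, at -1.27, and was at -0.74 in total mRNA. MED5A and MED5B, Mediator subunits known to repress the pathway, were at -0.14 and -0.59 in polysomal mRNA and at 0.14 and 0.03 in total mRNA, and both were called lower in polysomal than in total mRNA in light, at -1.26 and -1.33. These ratios were not corrected for gene length, and MED5A and MED5B measure 4.39 and 4.13 kb. Centring shifts every log2 ratio of polysomal against total mRNA in light by 0.28 and every difference of these ratios by 0.18, which ends the calls of SNG1, MED5A and UGT84A2. The same centring adds calls of higher values in polysomal light against dark, for 5 of 10 monolignol genes in place of 3, with CCR1 (1.08) and CCR2 (1.09) new, and for 7 of 20 genes of phenylalanine supply in place of 5. In polysomal against total mRNA in light it calls 2 of 10 monolignol genes higher in place of 1, with CCR1 new, and 7 of 11 flavonoid genes in place of 6, with UGT75C1 new. The shares of all genes called higher with centring were 12.4% in polysomal light against dark and 17.7% in polysomal against total mRNA in light. The difference between light and dark in the polysomal-to-total ratio is then called higher for UGT75C1 and MYB75 as well, and MYB111 is called higher in total light against dark. Among the genes named in these lists that had values in the 4 libraries, ATR1, ADT1, PPA-AT, CS, DHS2, 4CL5, CCR1, CCR2, REF1, CHS, F3H, UGT75C1, KFB50 and MED5A overlap another annotated gene.

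Genes of like pattern were found by the distance between log2(RPKM + 1) values over the 4 libraries, each centred on its mean, among the 9424 genes that averaged 10 RPKM or more (9425 for 4CL3). A distance of 0 means the same ratios of (RPKM + 1) between all libraries, which for genes near 1 RPKM are not ratios of RPKM. For PAL1 the nearest was RHM1 (AT1G78570), at 0.009, with 52.5 RPKM in polysomal light, 33.5 in polysomal dark, 71.7 in total light and 37.0 in total dark, followed by emb2444 at 0.023. AT2G42490 and AT1G53430 were nearest to PAL2, at 0.075 and 0.10, and PAO4 and AKR2B to PAL4, at 0.033 and 0.036. C4H had AT1G73170 and cpHsc70-1, both at 0.10. The profiles of these genes run nearly parallel to that of the enzyme they are listed for. For 4CL1 they were AT3G48070 and PDH-E1 BETA, at 0.048 and 0.069, and for 4CL2 AT4G14000 and SDIR1, at 0.054 and 0.057. 4CL3 had no gene as near, with AT4G29930 at 0.35 and the antenna gene LHCA3 at 0.36. The added 1 bears on these 4CL3 distances, as 4CL3 had 0.556 RPKM in polysomal dark and 0.340 in total dark. LHCA3 had 1235 RPKM in polysomal light against 216 in polysomal dark, and 983 in total light against 187 in total dark. Its ratios of RPKM were thus smaller than those of 4CL3.

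C4H and PAL2 were at 0.38 from each other, with 53 genes nearer to C4H and 105 nearer to PAL2 than that, and PAL4 and 4CL1 were at 0.22, with 195 and 130 genes nearer. 4CL3 was at 2.03 or more from each of the others. Within the pathway lists, a set of neighbours looked up after the values were seen, PAL1 was nearest to PAL3 at 0.16, 4CL1 to HCT at 0.16, PAL2 to DHS2 at 0.34 and 4CL3 to MYB75 at 0.53.

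Splicing was compared in total mRNA, from the deposited table of events, which gives the event reads and the percent of reads with the event. Of the 7 enzymes, 5 had no event listed, and 2 had 3 events between them, 4CL2 and PAL2. Of all tested genes 52.0% had at least 1 event. The authors' list of light-regulated events, which holds 17.0% of the 22449 events, has 0 of these 3. In the table of polysomal events the enzymes had 0 events. PAL2 has a single intron and 4CL2 has 3, and the sequences concerned are given from RefSeq, build TAIR10.1, on the gene's strand. In the retained introns of 4CL2 the capitals mark the first and last pair of bases. In the 2 PAL2 windows, which hold 12 bases before and 12 after a splice donor, they mark the pair of bases after the junction.
4CL2 intron 2, chr3:7454824-7454930, minus strand: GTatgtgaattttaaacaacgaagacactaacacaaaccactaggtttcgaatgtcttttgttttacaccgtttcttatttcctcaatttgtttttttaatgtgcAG
4CL2 intron 3, chr3:7454617-7454720, minus strand: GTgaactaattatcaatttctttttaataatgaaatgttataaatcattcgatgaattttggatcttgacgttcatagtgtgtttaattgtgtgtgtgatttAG
PAL2 annotated donor of intron 1: agaactcattagGTaattaattaa
PAL2 shifted donor of intron 1: agaactcattagGAatgtgatcag

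4CL2 kept intron 2 in 23 of 335 reads in total light, 6.87% (exact binomial 95% interval 4.40 to 10.12), against 27 of 213 reads in total dark, 12.7% (8.52 to 17.9). It kept intron 3 in 9 of 383 reads in total light, 2.35% (1.08 to 4.41), against 9 of 137 in total dark, 6.57% (3.05 to 12.1). Both percents were lower in light, with intervals that overlap those in the dark. In the authors' deposited table these differences had unadjusted chi-square p-values of 0.0149 and 0.0171 and log2 ratios of -0.88 and -1.48. The authors' light-regulated list holds no p-value above 0.00998, and 37.0% of the events in the authors' deposited table had a p-value below 0.05. Intron 2 is 107 bases long and intron 3 104, neither a multiple of 3. Read on from the exon before, an in-frame stop ends 31 bases into intron 2 and 9 bases into intron 3. A RefSeq transcript of 4CL2 keeps intron 2, and none keeps intron 3.

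The PAL2 event places the donor of intron 1, chr3:19746006-19746215 on the minus strand, 62 bases further into the intron. It was seen in 15 of 320 reads in total light, 4.69% (2.65 to 7.61), against 11 of 138 in total dark, 7.97% (4.05 to 13.8). The authors' deposited table gives it a p-value of 0.148 and a log2 ratio of -0.77. The shifted junction is not followed by the usual GT but by GA, and the 12 bases before it are the same 12 that end the exon. Of 1070 listed events with a donor shifted into the intron and matched to a RefSeq gene model, 971 (90.7%) had GT at the shifted place. A repeat of at least 12 bases before both donors occurred in 15 of the 1070 (1.40%), 9 with GT and 6 among the 99 without. The median repeat was 1 base.

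**Figure D5:**
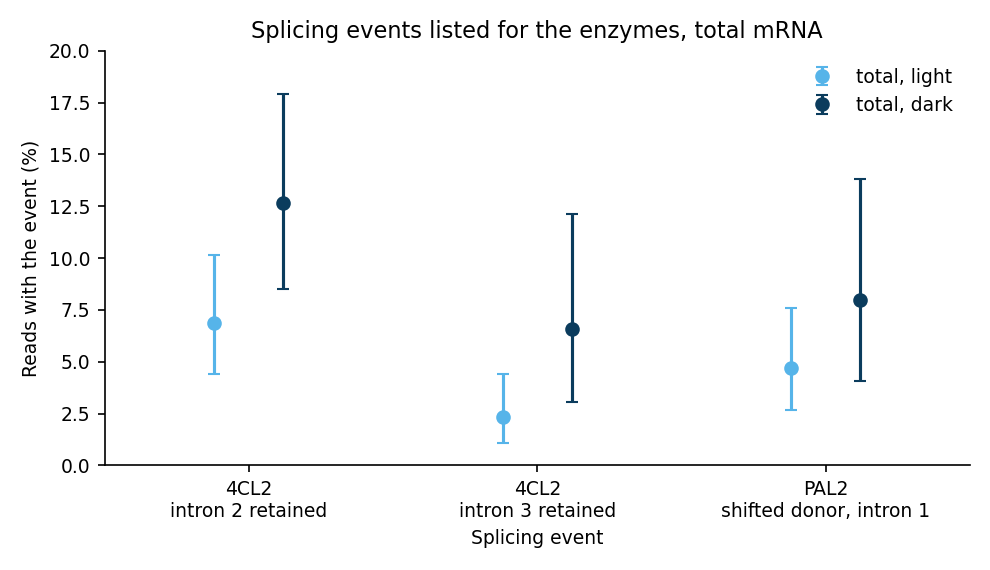
Percent of reads with each of the 3 listed events in total light and total dark, with exact binomial 95% intervals. Every event is lower in light, and the intervals of light and dark overlap in each.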

How the data were processed

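Total and polysomal mRNA of 4 groups with 1 library each were read from the deposited tables. For the aligner, the counting program, its use of strand and the read length, nothing is given in the sources used here. The genome build is TAIR10, per the submitters' processing notes. Per the file headers, the authors deposited gene length, read counts and RPKM for each library. The polysomal columns of reads and RPKM were taken as deposited by the authors, with reads partly not whole (estimated counts). For splicing, per the file headers, the authors deposited event read counts, the percent of reads with the event, a log2 ratio of percents and an unadjusted chi-square p-value. The total of reads behind each event was recovered from event reads and percent. Microarray data named in the design were not used here.

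Genes listed in the 4 libraries that averaged 1 RPKM or more were compared by log2 ratios of (RPKM + 1) in 5 comparisons, with calls at 2-fold. With 1 library per group no p-value was computed. Exact 95% binomial intervals, and a log-normal interval for the difference of ratios, used the deposited reads and cover counting error only. The gene lists (6 lists, 63 genes, and markers) and the enzymes themselves were chosen with earlier results of these data known. Named were all 7 enzymes, up to 4 called genes per direction, list and comparison, the gene nearest to each list median, the 2 genes nearest in pattern, and every event of an enzyme. Other genes of the lists are named for their role, after their values were seen. Introns, promoters and coding sequences come from RefSeq TAIR10.1, whose release differs in name from the build of the files. Coding sequences were aligned globally with Biopython 1.88. Python 3.11.15, pandas 2.3.3, scipy 1.17.1 and statsmodels 0.14.6 were used, and the ratio code was tested on simulated data. Alternatives covered the pseudocount, the filter, the scaling, reads without length and the trend on gene length.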

Additional observations from a re-analysis of the deposited data

Results flagged for a closer look

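PAL4 and 4CL1 were the enzymes whose difference between light and dark had opposite signs in the 2 fractions, lower in light in polysomal mRNA and higher in light in total mRNA. For 4CL1 the interval of the polysomal fold, given above, includes equal levels in light and dark. The polysomal minus the total log2 ratio was -0.30 for PAL4 and -0.36 for 4CL1. It was of like size in PAL1 (-0.32), PAL2 (-0.27) and C4H (-0.45), which were higher in light in both fractions. 4CL2 and 4CL3 were at 0.10 and 0.57, and the median over all genes was -0.18. With 1 library per group these differences were not tested. Centring, a shift by the median ratio of the genes of 5 RPKM or more, turned the polysomal values positive, to 0.08 for PAL4 and 0.19 for 4CL1. The differences of these 2 genes then were -0.12 and -0.17.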

How the results depend on the processing

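No paired analysis was possible because each group holds 1 library, and for the same reason no library was left out. Of 254 log2 ratios of the enzymes under an alternative, 243 kept their sign, 166 moved by less than counting error, and 88 by more. A changed filter only chooses genes, so ratios under it could not move. They are counted among the 243 and the 166, which therefore overstate the stability. No called ratio changed sign. The count of enzymes higher in light was 1 in total and 0 in polysomal mRNA with a filter at a mean of 5 RPKM, one that leaves out 4CL3, against 2 and 1. Of all genes passing that filter, 12.2% and 10.4% were called higher. Centring on the genes of 5 RPKM or more gave 2 higher in polysomal mRNA, and in polysomal against total mRNA in light 1 higher, 4CL3, and 0 lower, against 0 and 2. Of all genes, 12.4% were then higher in polysomal mRNA. In polysomal against total mRNA in light 17.7% were then higher and 12.8% lower. Removing the trend on gene length gave 2 higher and 0 lower in light, against 0 and 2, and 1 higher in the dark, against 0. It left 7.67% of all genes higher and 6.97% lower in light, and 9.95% higher in the dark. Setting the sums of nuclear genes equal gave 3 lower in light, PAL1, PAL2 and C4H, against 2, with 39.5% of all genes lower, and 3 lower in the dark, PAL2, C4H and 4CL2, against 0, with 33.2% of all genes lower. Only 1 of the 3 splicing events had at least 20 event reads in a library. The cause of these changes was otherwise not tested.

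The centring moved the median of all genes by 0.22 in polysomal light against dark and by 0.28 in polysomal against total mRNA in light, and the share of higher among called genes there to 64.5% and 58.0%, against 47.7% and 37.4%. For the difference of ratios that shift was 0.18 and the share 41.1%, against 18.5%. Equal nuclear sums moved the medians of polysomal against total mRNA by -0.46 in light and -0.47 in the dark, and the shares to 13.5% and 20.8%, against 37.4% and 50.4%. A pseudocount of 5 moved the light median by 0.13 and the shares to 48.1% in light and 60.5% in the dark. Reads scaled to library size without length moved them by -0.12 and -0.11, to 27.0% and 39.1%. Depth limits 4CL3 in the dark, with 91 polysomal and 48 total reads, and the splicing events, with 9 to 27 event reads a library.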
